A study of Mus musculus with 6 samples.

Results

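The miRNA repertoire of fresh mouse blastocysts was described from 3 pools, F1, F2 and F3, each of 300 blastocysts. All rows of TaqMan rodent microRNA cards A and B were taken except the U6 wells and the other small RNA and plant controls. This left 750 miRNA assays of 768 wells, 375 on each card. The assays carried 596 mouse names, 78 rat names and 76 human names.

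The study set 3 fresh pools beside 3 vitrified pools, and the fresh pools, its untreated controls, are the ones described here. Embryos came from superovulated Kunming white mice, 5 weeks old, an outbred Chinese stock, and were collected from the oviducts 92 to 94 hours after hCG. Per the labels, culture was in CZB medium. Because a pool mixes the embryos of many females, the values carry no information on single embryos, on the inner cell mass or on the trophectoderm. The labels do not say whether the pools came from separate collections, so the spread between them may be technical.

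Real-time PCR reports a cycle number, the Ct, at which the product passes a threshold. A low Ct means much template, and 1 cycle is a doubling at full efficiency. Each assay was 1 well per pool. A Ct under 40 counted as determined. To give the ΔCt, the mean U6 Ct (4 wells per card) was subtracted within each card and pool, so a low or negative ΔCt is a high level relative to U6, a spliceosomal RNA. An order of different assays by ΔCt takes their reverse transcription, pre-amplification and PCR to be equally efficient, which was not tested. Where values stand in a row without pool names, 3 values are those of F1, F2 and F3, and 2 values are those of F2 and F3.

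miRNAs are short RNAs cut from hairpin precursors, and 1 arm of the hairpin usually stays in the silencing complex. Bases 2 to 8 of the mature RNA, the seed, choose the target mRNAs, so that miRNAs with a shared seed act on similar targets. In mouse, the miR-290 to miR-295 cluster switches on in the cleaving embryo and is the leading miRNA cluster of embryonic stem cells, where it speeds entry into S phase. The related miR-302 to miR-367 cluster comes up around and after implantation. The let-7 family works the other way and builds up as cells differentiate, while miR-200 family members hold cells epithelial by repressing Zeb1 and Zeb2.

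Mature sequences were taken from RefSeq (build GRCm38.p6), which gave 283 of the 596 mouse-named assays a sequence. The first set shows the seed of the embryonic clusters beside that of the miR-17 family, which is the same run shifted by 1 base. Capitals mark the seed.
miR-291a-3p: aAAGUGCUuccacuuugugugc
miR-294-3p: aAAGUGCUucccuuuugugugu
miR-295-3p: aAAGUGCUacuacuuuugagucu
miR-302b-3p: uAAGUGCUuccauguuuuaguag
miR-302d-3p: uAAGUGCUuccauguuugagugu
miR-17-5p: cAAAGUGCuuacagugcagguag
miR-20a-5p: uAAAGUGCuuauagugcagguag
miR-106a-5p: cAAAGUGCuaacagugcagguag

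On the plus strand of chromosome 7, the 8 hairpins of the miR-290 to miR-295 cluster in the table span chr7:3218626-3220841, with miR-294-3p at chr7:3220691-3220712. The 5 hairpins of the miR-302 to miR-367 cluster span chr3:127545228-127545807, also on the plus strand. The next set holds further seeds to which the results below return. It comprises both seeds of the miR-200 family, the seed that miR-92a shares with miR-367, let-7, miR-16, both arms of the miR-34 and miR-449 group, and the stable assay miR-155.
miR-200c-3p: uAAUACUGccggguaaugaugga
miR-200b-3p: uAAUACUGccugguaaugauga
miR-200a-3p: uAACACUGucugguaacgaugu
miR-141-3p: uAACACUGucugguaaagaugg
miR-92a-3p: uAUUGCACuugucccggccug
miR-367-3p: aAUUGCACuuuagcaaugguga
let-7c-5p: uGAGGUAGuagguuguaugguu
miR-16-5p: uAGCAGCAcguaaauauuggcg
miR-449a-5p: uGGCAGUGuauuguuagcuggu
miR-34b-3p: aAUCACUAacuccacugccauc
miR-34c-3p: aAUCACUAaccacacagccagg
miR-155-5p: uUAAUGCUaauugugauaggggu

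The pools were unequal in how much they held. F1 had 140 determined assays, F2 had 409 and F3 had 405, a mean of 318 ± 154 (SD, n = 3). In all 3 pools 17.7% of the assays were determined, 85 on card A and 48 on card B, whereas F2 and F3 shared 370, or 49.3%. F1 alone reached 18.7%. Of the 370 assays shared by F2 and F3, 237 were missed in F1, and rno-miR-17-3p (Ct 37.39) was the 1 assay determined in F1 only. No pool had a Ct under 40 for 305 assays, 40.7%, of which 127 were on card A and 178 on card B. At this cycle limit an undetermined assay lay at a ΔCt above 22.84 to 23.41, depending on card and pool.

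F1 therefore stood apart. Summaries over F2 and F3 leave it out, and its own values are given beside them for the members named. Its mean U6 Ct was 17.08 on card A and 16.88 on card B, beside 16.59 to 17.16 in the other pools. The other small RNA controls of F1 were not level with U6: snoRNA202 on card A had a Ct of 27.47 in F1, 18.04 in F2 and 18.22 in F3. snoRNA135 on that card had a Ct of 35.46 in F1, 22.69 in F2 and 23.11 in F3, and U87 and Y1 were not determined in F1. The plant assay ath-miR159a was not determined in any fresh pool. Why these RNAs and the miRNAs of F1 crossed so late beside U6 was not tested.

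Across assays, which are not independent replicates, Spearman's rho was 0.93 between F2 and F3 (370 assays), 0.39 between F1 and F2 and 0.43 between F1 and F3 (136 assays each). All 3 values share the card layout and the U6 correction. F2 and F3 lay within 1 cycle of each other for 187 of 370 assays, and F3 crossed earlier by a median of 0.69 cycles. Among the assays determined in every pool, F1 crossed later than both other pools for 107, between them for 9 and earlier than both for 17. Its lag behind the mean of F2 and F3 had a median of 4.18 cycles, which was 5.85 on card A (85 assays) and 1.70 on card B (48 assays). Assays missing from F1 were the scarcer ones elsewhere, with a median ΔCt over F2 and F3 of 13.65 against 8.33 for those it held. Even so, 7 of the first 50 assays in F2 and F3 were absent from F1, since 43 were determined there.

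**Figure D1:**
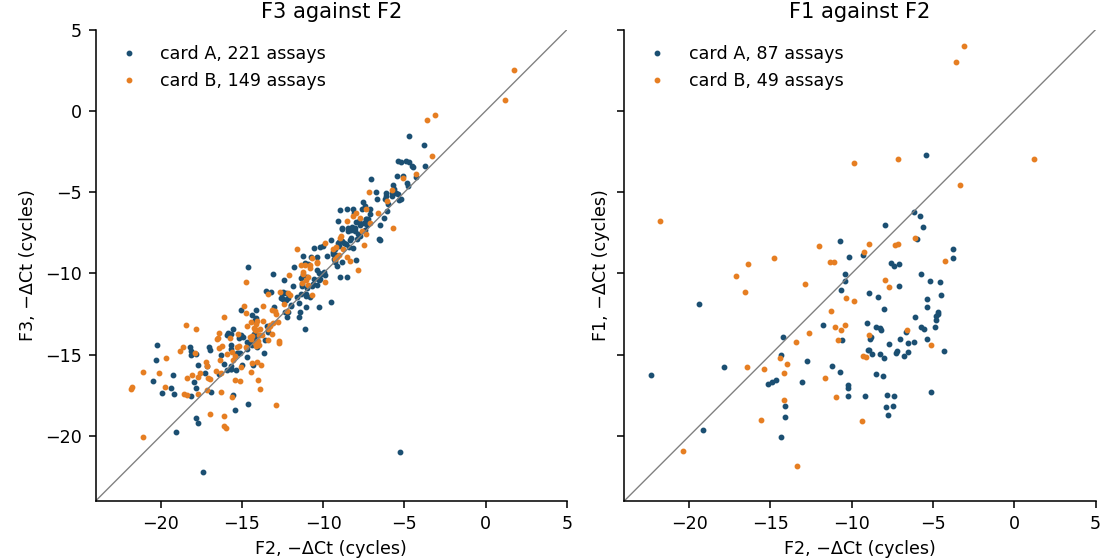
Relative abundance (−ΔCt in cycles, higher is more) of each assay determined in both pools of a panel, F3 against F2 on the left and F1 against F2 on the right, coloured by card, with the line of equality. F2 and F3 follow the line (rho 0.93, 370 assays), while most F1 values lie below it (rho 0.39, 136 assays).

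Within a pool the levels covered a wide range and were concentrated in few assays. The lowest ΔCt was -4.02 in F1, -1.72 in F2 and -2.52 in F3, and the medians were 13.46, 12.87 and 12.05 in that order. Under a ΔCt of 5 lay 7 assays in F1, 16 in F2 and 28 in F3. On the linear scale (2 to the power of −ΔCt), the first 10 assays made up 99.7% of the summed level in F1, 85.2% in F2 and 83.1% in F3. Much of this lay in 1 assay per pool. In F1 miR-1937b alone made up 64.6%, and miR-1937c came next, both matching tRNA fragments. The rat assay rno-miR-632 alone made up 45.3% in F2 and 44.5% in F3. These shares therefore do not show how concentrated the remaining miRNAs were.

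**Figure D2:**
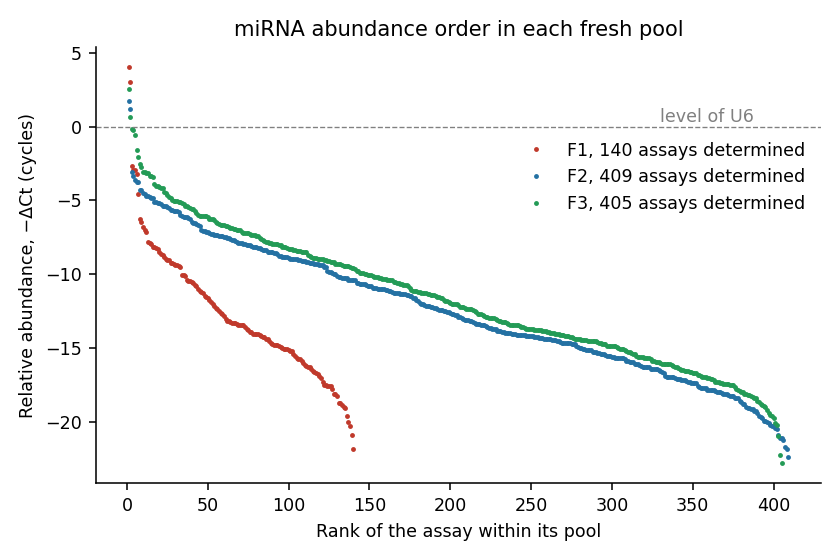
Relative abundance (−ΔCt in cycles) of every determined assay against its rank within the pool, with 0 as the level of U6. F2 (409 assays) and F3 (405 assays) run close together, and F1 (140 assays) drops away after its first few assays.

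By the mean ΔCt over the 3 pools, the order opened with miR-1937b, miR-2134, miR-1937c, hsa-miR-200c and miR-191. It went on with miR-24, miR-720, miR-16, hsa-miR-223, miR-484, miR-150, mmu-miR-200c, miR-29a, miR-145 and miR-222. miR-1937b had ΔCt values of -4.02, 3.10 and 0.26 (mean -0.22 ± 3.58, SD, n = 3). The second, miR-2134, ran the other way between pools, at 2.95 in F1, -1.22 in F2 and -0.67 in F3 (0.36 ± 2.27). Of the 14 neighbouring pairs in these first 15, only miR-16 and hsa-miR-223 differed by more than the SD of their within-pool differences (0.39 ± 0.21 cycles), so the places within the list are not resolved by 3 pools.

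The assay hsa-miR-200c was among the steadiest of the abundant ones. Its ΔCt was 4.57 in F1, 3.32 in F2 and 2.77 in F3 (3.55 ± 0.93). miR-191, a broadly expressed miRNA, had 2.68, 5.45 and 4.0 (4.05 ± 1.38). The mouse assay for miR-484, which is made without Drosha from a capped precursor, had 6.46, 5.78 and 5.22 (5.82 ± 0.62). For hsa-miR-200c and miR-484 the pools lay close together. miR-191 was more spread, and miR-24, of the clusters with miR-23 and miR-27, more so, at 8.48, 3.78 and 2.09 (4.79 ± 3.31).

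Without F1, the order over F2 and F3 was headed by rno-miR-632, at -1.72 in F2 and -2.52 in F3, which F1 lacked. miR-2134, miR-1937b, miR-1937c, miR-24 and hsa-miR-200c came next. They were followed by miR-145, miR-16, miR-30c, miR-29a, miR-30b, miR-138, hsa-miR-223, miR-222 and miR-19b. This list shared 10 of its 15 assays with that over all 3 pools. The first 15 of F2 and of F3 taken singly also shared 10, and their first 50 shared 41. In contrast, the first 15 of F1 shared 4 with those of F2 and F3.

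F1 had its own head of the list. After miR-1937b, miR-1937c (-3.03), miR-191, miR-720 (2.93) and miR-2134 came miR-34c# at 3.19, where # marks the assay of the less used arm. That assay had a ΔCt of 9.88 in F2 and 8.14 in F3. hsa-miR-200c, miR-150, miR-484 and hsa-miR-875-5p completed the first 10. The last of these had 6.78, 21.82 and 17.10, the widest spread of all assays determined in 3 pools (SD 7.69).

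The other assays with the widest spread were late in F1 and early elsewhere. miR-26a, a broadly expressed miRNA, had a ΔCt of 17.32 in F1, 5.10 in F2 and 4.01 in F3 (SD 7.39). miR-26b, rno-miR-196c and miR-19b also had SDs of 6.11 to 6.57. The narrowest spreads belonged to miR-449a, miR-667, miR-155, miR-204 and miR-652, with SDs of 0.16 to 0.31. For miR-155, an immune cell miRNA, the ΔCt was 11.03, 10.65 and 10.63.

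Between F2 and F3 the widest gap was that of rno-miR-190b, named after its values were seen, at 5.28 in F2 and 20.98 in F3. Each value was 1 well.

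The miR-290 to miR-295 cluster, the defining miRNAs of the early mouse embryo, was not determined in F1 for any of its 16 assays. In F2 and F3 it was present: 8 of 16 assays (50%, beside 49.3% over all assays) were determined in both, 2 in F2 only and 6 in no pool. miR-292-3p on card A led with a ΔCt of 6.48 in F2 and 7.94 in F3, followed by its card B assay at 7.87 and 9.81. miR-295 had 8.54 and 10.20, miR-293 had 9.51 and 11.75, and miR-291a-3p had 10.23 and 12.06. miR-294, which carries the same AAGUGCU seed as miR-295 and miR-291a-3p, had 11.09 in F2 and 13.42 in F3.

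Over F2 and F3 the cluster's median ΔCt was 10.89, beside 11.90 over all 370 assays determined in both pools. It was one of the few lists with more template in F2: all 8 assays crossed earlier in F2, with a median difference (F2 minus F3) of -1.89 cycles, while 275 of the 370 assays crossed earlier in F3. With a Ct under 35 required, 7 of the 8 remained determined in both pools. The undetermined assays were miR-290, miR-291-5p, miR-291b-5p, miR-292-5p, rno-miR-293 and rno-miR-294, that is, mostly the other arm or a rat sequence.

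In the miR-302 to miR-367 cluster none of the 5 assays was determined in both F2 and F3. miR-302b, which with miR-302d carries the AAGUGCU seed, had a ΔCt of 14.54 in F2 alone (Ct 31.13). miR-302a, miR-302c and miR-302d were not determined. miR-367 had 16.27 in F1 (Ct 33.35) and 22.37 in F2, where its Ct of 38.96 was among the 3 latest of the set. Its seed partner miR-92a, in contrast, had 12.05, 5.37 and 5.11.

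The proliferation-linked miR-17 family and its cluster mates were well represented where F1 was left out. Of the 9 assays for miR-17, miR-20, miR-93 and miR-106, 7 were determined in F2 and F3, with a median ΔCt of 7.38 (17.54 for the 5 in F1), 4 in all 3 pools and 1, rno-miR-20b-3p, in none. rno-miR-17-3p was determined in F1 alone (20.31). miR-17 had 12.62 in F1, 4.84 in F2 and 4.46 in F3. miR-20a was missing in F1 and had 5.20 in F2 and 5.44 in F3, and miR-106a, from the X-linked copy of the cluster, had 12.87, 4.79 and 4.61. In the group of miR-18, miR-19, miR-25, miR-32, miR-92a and miR-363, 6 of 8 assays (75%) were determined in F2 and F3. miR-18b and miR-363 were in no pool. miR-19b led with 14.77, 4.30 and 4.09.

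The family of miR-15, miR-16, miR-195 and miR-497, which restrains the G1 cyclins, was complete in F2 and F3 (5 of 5, beside 49.3% of all assays). miR-16 was foremost, at 9.06, 3.76 and 3.36. The 12 assays of the X-linked cluster of miR-322, miR-503, miR-351, miR-450 and miR-542 were scarcer, with 9 in F2 and F3 at a median of 13.65 and 1, miR-503, in F1 (20.04). miR-322 on card A had 10.01 in F2 and 8.31 in F3, and rno-miR-351 had 12.56 and 11.26. The assays miR-450a-3p, miR-450b-5p and rno-miR-450a were undetermined.

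The let-7 family stood beside the embryonic cluster in F2 and F3. Of 9 assays including miR-98, all on card A, 8 were determined in F2 and F3 (88.9%, beside 49.3% of all assays), at a median ΔCt of 7.02. In F1 4 were determined, at a median of 14.50. let-7c had 13.59 in F1, 6.67 in F2 and 5.39 in F3, and let-7e had 14.24, 6.20 and 5.39. let-7b (7.35 in F2, 6.67 in F3) and let-7i (7.37 and 6.68) were absent from F1. let-7a and let-7f, at 10.80 to 12.05, crossed later than these in both pools, and miR-98 was determined in F2 only (13.87).

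All 7 assays of the miR-200 family (miR-200, miR-141 and miR-429) were determined in all 3 pools, where 17.7% of assays were. Their median ΔCt was 10.06 in F1, 5.72 in F2 and 5.08 in F3. miR-200c and miR-141 come from chr6:124717914-124718390 and miR-200b, miR-200a and miR-429 from chr4:156053905-156055750, both on the minus strand. Within F1 the members of both loci were spread out. On card A, mmu-miR-200c had a ΔCt of 7.14, miR-200a 10.06, miR-429 12.16, mmu-miR-200b 13.41 and miR-141 14.28. The card B assays hsa-miR-200c and hsa-miR-200b had 4.57 and 7.80. Assay and card cannot be told apart here, and the lag of F1 differed between the cards. In F2 the 7 assays lay between 3.32 (hsa-miR-200c) and 7.99 (miR-429). The cluster of miR-182, miR-183 and miR-96, also epithelial and sensory, was complete in F2 and F3 at a median of 14.44, and only miR-182 was determined in F1 (16.87).

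The miR-30 list was likewise complete (7 of 7 in all 3 pools). It counts hsa-miR-30a-3p and hsa-miR-30e-3p, which are of the other arm of their hairpins. miR-30c had 12.52 in F1, 4.71 in F2 and 3.15 in F3, and miR-30b had 11.30, 4.50 and 3.43. Over all assays 49.3% were determined in F2 and F3, and 18.7% in F1. Of the miR-26 and miR-29 families, 5 of 5 were determined in F2 and F3. miR-29a, which targets collagens and de novo DNA methyltransferases, had 10.54, 4.54 and 3.36. All 8 assays of miR-130, miR-301, miR-148 and miR-152 were determined in F2 and F3 and none in F1, with miR-152 first (8.48 in F2, 7.23 in F3) and miR-148a next (9.09 and 8.13). The group of miR-181, miR-221 and miR-222 was also complete in F2 and F3 (5 of 5), led by miR-222 at 10.46, 5.19 and 3.15.

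miR-21, a widespread miRNA of growing cells, had 6.06 in F2 and 6.15 in F3 and was missing in F1, and miR-210, the hypoxia miRNA, had 14.70, 9.01 and 8.04. Of the 10 assays for miR-10, miR-99, miR-100 and miR-125, 8 were determined in F2 and F3 (80%, beside 49.3% of all assays). miR-99a and miR-100, which share the seed ACCCGUA with miR-99b, were in no pool, whereas miR-99b had 9.25 in F2 and 8.47 in F3. In the group of miR-23, miR-24 and miR-27 the assay miR-23a was undetermined and miR-27b had 9.51 and 7.95. The list of miR-101, miR-199 and miR-214 had 7 of 7 in F2 and F3 and 2 in all pools. miR-199a-3p had the lowest mean ΔCt of the list over F2 and F3, at 7.19 (16.29, 8.08 and 6.29 in the pools), and hsa-miR-214 was next at 7.31 (8.14 and 6.48).

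**Figure D3:**
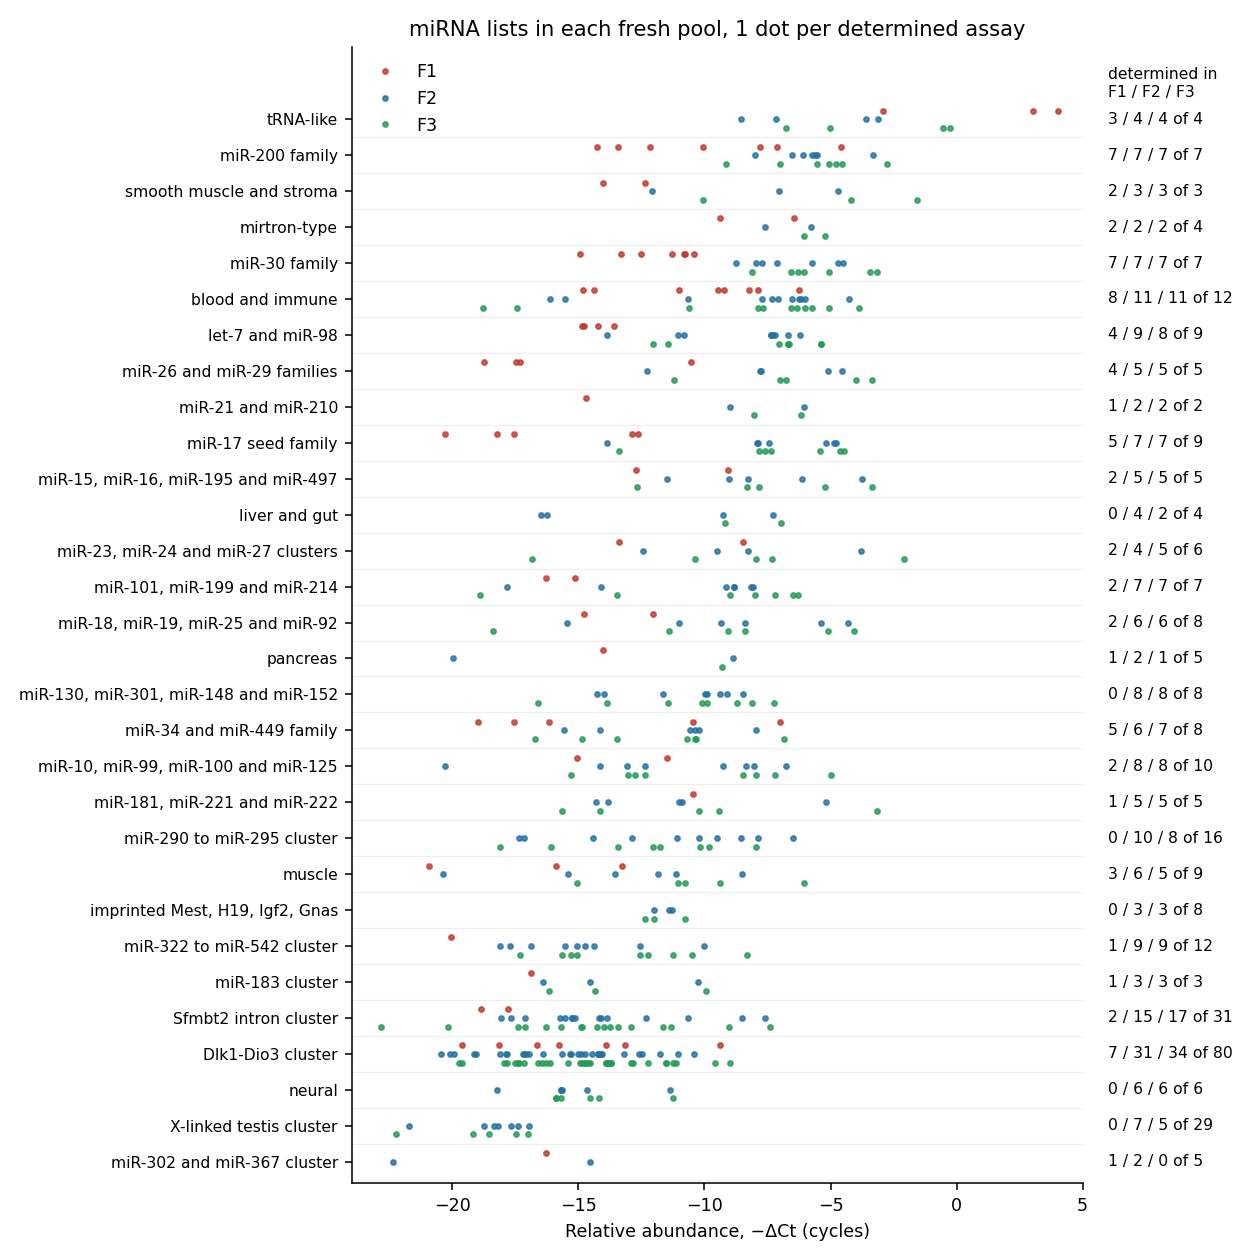
Relative abundance (−ΔCt in cycles) of the determined assays of each list, ordered by the median over F2 and F3, with F1, F2 and F3 in separate colours and the number determined in each pool at the right. The miR-200 and miR-30 lists have 7 of 7 in every pool, with hsa-miR-30a-3p and hsa-miR-30e-3p, of the other arm, counted in the latter. For the miR-290 to miR-295 cluster the counts are 0, 10 and 8 of 16.

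Imprinted and placenta-linked clusters were detected in part. One miRNA cluster lies within an intron of Sfmbt2, a paternally expressed gene needed in trophoblast. Of its 31 assays, 15 were determined in F2 and F3 (48.4%, beside 49.3% of all). There were 2 in F1 and 14 in no pool, beside 18.7% and 40.7% of all assays. miR-467a on card B led it with 7.60 in F2 and 7.39 in F3, followed by miR-467F with 8.50 and 9.02. The Dlk1-Dio3 region, whose miRNAs come from the maternal chromosome, had 29 of 80 assays in F2 and F3 (36.3%, beside 49.3% of all). It had 7 in all 3 pools and 44 in none, beside 17.7% and 40.7% of all assays. miR-127 had 10.40 in F2 and 8.98 in F3, and 26 of the 29 crossed earlier in F3, beside 275 of 370 over all assays. miR-335-3p and miR-335-5p from Mest had 10.76 to 12.01 and miR-296-5p, from the Gnas locus, had 11.41 and 12.38, while miR-675 (both arms, from H19), miR-483 (from Igf2), miR-298 and miR-296-3p were undetermined.

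The X-linked testis cluster, active in male germ cells, was the scarcest of the large lists. Only 4 of its 29 assays (13.8%, beside 49.3% of all) were determined in F2 and F3, at a median ΔCt of 18.89, and 21 were in no pool, as were 40.7% of all assays. miR-465C-5P had 18.36 in F2 and 17.49 in F3, and miR-741 was determined in F2 alone (16.97).

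The labelled cell type was next set against markers. Beside the embryonic cluster, markers of other tissues were determined, several at higher levels. For each list the levels were summed over its determined assays and returned to the ΔCt scale. A miRNA with 2 assays, such as miR-200c, miR-223 or miR-292-3p, entered with both. The lists held 1 to 16 assays, so their sums also depend on how many assays each has. The embryonic list had a summed ΔCt of 5.57 in F2 and 7.23 in F3 and no determined assay in F1. The epithelial list (the miR-200 family) had 4.19 in F1, 2.39 in F2 and 1.80 in F3, and trophectoderm and oviduct lining are both epithelia.

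The blood list (miR-451, miR-144, miR-486, miR-142, miR-223 and miR-150) had all 8 assays in F2 and F3 and 5 in F1, with a summed ΔCt of 5.70, 3.19 and 2.87. miR-150, a lymphocyte miRNA, had 6.24 in F1, 6.16 in F2 and 5.06 in F3, and miR-486, from red cell precursors, had 7.89, 6.01 and 5.74. miR-451, the most abundant miRNA of red cells, had 6.23 in F2 and 6.58 in F3 and was missing in F1. hsa-miR-144, from the same locus, was far later at 16.13 and 18.78, and miR-142-5p had 15.53 and 17.45, both also missing in F1. The sum was led in F2 and F3 by hsa-miR-223 on card B (9.22, 4.28 and 3.87), while the card A assay mmu-miR-223 was later in each pool (14.37, 7.71 and 7.69). The 12 assays of the wider blood and immune list included 8 determined in all 3 pools, among them miR-146a at 9.45, 7.09 and 6.35, and only miR-146b was in none.

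The smooth muscle and stroma list (miR-143 and miR-145, which are transcribed together) had a summed ΔCt of 11.95 in F1, 4.44 in F2 and 1.35 in F3. miR-145 had 12.34 in F1, 4.71 in F2 and 1.57 in F3, and miR-143 on card A had 14.02, 7.03 and 4.19. The card B assay hsa-miR-143 was later, at 12.10 and 10.08, and missing in F1. miR-145 and the card A assay of miR-143 crossed earlier in F3 than in F2, by 3.14 and 2.84 cycles, the opposite of the embryonic cluster. The endothelial miR-126-3p, which was in none of the summed lists, had the same order of pools, at 11.59, 5.39 and 3.09. Both parts of this order were common among all assays. F1 crossed later than both other pools for 107 of the assays determined in every pool. Between F2 and F3, 275 of 370 assays crossed earlier in F3. In bulk RNA, more cells of a type and more RNA per cell cannot be told apart, and the part of other tissues in the levels of the pools was not tested.

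The list for multiciliated cells, which line the oviduct, had a summed ΔCt of 6.87 in F1, 7.46 in F2 and 6.62 in F3. It was led by miR-34b-3p with 7.0, 7.96 and 6.86, and miR-449a had 10.45, 10.39 and 10.70, so that neither lagged in F1. The other members determined in F1 did lag. miR-34c, which is transcribed together with miR-34b, had 17.54 in F1, 10.23 in F2 and 10.33 in F3. miR-34b-5p, the other arm of miR-34b-3p, had 18.99, 15.59 and 14.85, and the card B assay of miR-449b had 16.15, 14.16 and 13.47. miR-34a, of the same seed family as miR-34c, had 10.57 and 10.37 and was missing in F1. miR-34c# and miR-34b-3p share the seed AUCACUA.

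The skeletal and heart muscle list had a summed ΔCt of 13.05 in F1, 8.14 in F2 and 5.83 in F3, later than the embryonic list in F2 and earlier in F3. miR-133a led it with 13.26, 8.53 and 6.05, rno-miR-1 had 11.12 and 9.39, and the heart muscle miRNAs miR-208, miR-208b and miR-499 were in no pool. The neuronal miR-124, miR-9 and miR-137 were determined in F2 and F3 and not in F1, with a summed ΔCt of 11.29 and 11.07 and miR-124 at 11.38 and 11.27. miR-128a, of the wider neural list, had 14.67 and 14.19. miR-122, the dominant miRNA of liver, was determined in F2 alone (16.26). The gut and liver miR-194 had 7.28 and 6.96, miR-192 had 9.27 and 9.17, and the islet miR-375 had 14.03, 8.86 and 9.31. The pancreatic miR-216a and miR-217 were undetermined, and miR-216b was determined in F2 alone (19.98).

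**Figure D4:**
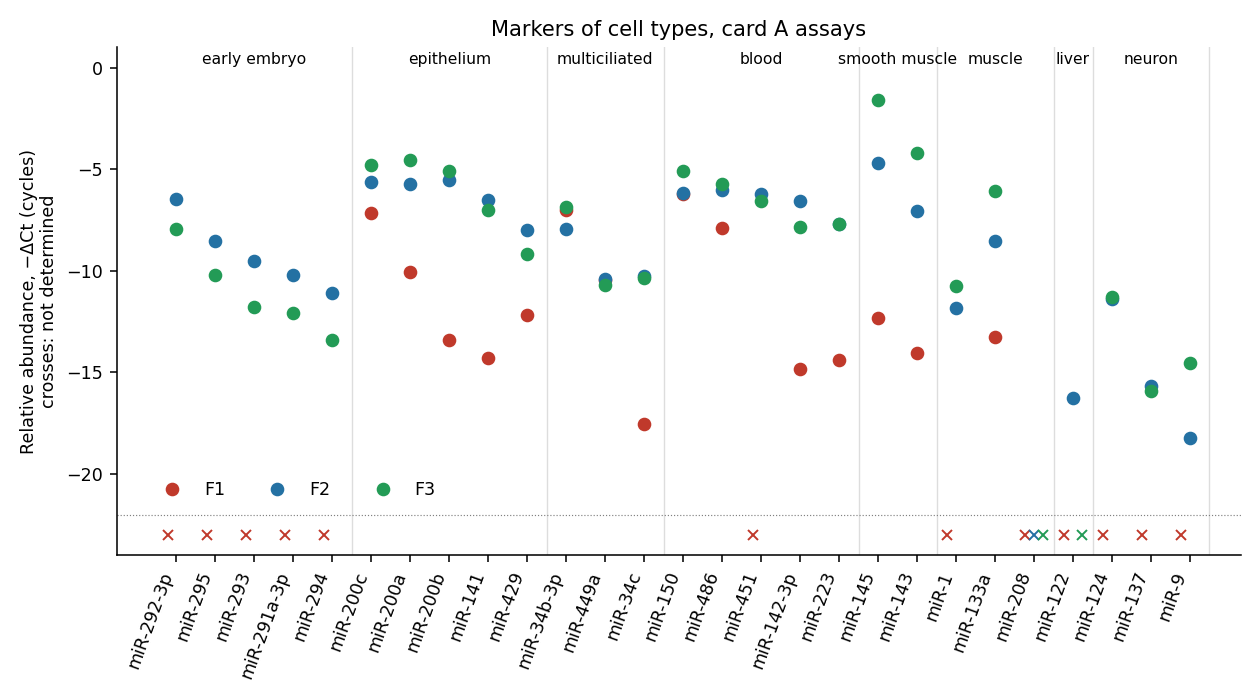
Relative abundance (−ΔCt in cycles) of selected card A marker assays by cell type, with 1 dot per pool and crosses where an assay was not determined. Not every card A member is shown. Among those left out are miR-290-3p (F2 only, ΔCt 17.17), miR-142-5p, and miR-291b-5p and miR-499, which were in no pool. The 5 embryonic assays shown were determined in F2 and F3 only and lie higher in F2, while miR-145 and miR-143 lie highest in F3.

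The 4 tRNA-like assays, listed as miRNAs when the cards were designed but matching tRNA fragments, formed the most abundant list. Their median ΔCt over F2 and F3 was 4.09, and -3.03 for the 3 determined in F1. miR-1937c had -3.03 in F1, 3.61 in F2 and 0.55 in F3, miR-720 had 2.93, 7.17 and 5.02, and miR-1274a had 8.56 and 6.78 and was missing in F1. miR-1937b, miR-1937c and miR-720 were earliest in F1, where most miRNAs were latest. Of the 87 assays with miRNA numbers of 1000 and above, 32 (36.8%, beside 49.3% of all) were determined in F2 and F3 and 42 in no pool (beside 40.7% of all). On card B, which holds miR-1937b, miR-1937c and miR-1274a, the unmarked assays had a similar share. There 38.8% were determined in F2 and F3, and 127 of 260 in no pool. The Drosha-independent miR-320 had 9.37, 7.58 and 6.06, and the mirtrons miR-702 and miR-1224 were undetermined.

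Of the less used arms, marked #, 48 of 115 (41.7%) were determined in F2 and F3, at a median ΔCt of 13.87, and 15 in all 3 pools. All of them were on card B. The unmarked assays of both cards had 322 of 635 (50.7%) at 11.31, but those of card B alone had 101 of 260 (38.8%) at 13.50, so within card B the # assays were not detected less often. Among 106 pairings of a # assay with the unmarked assay of its hairpin, 39 had both determined in F2 and F3, each with the unmarked assay on card A and the # assay on card B, so that arm and card cannot be told apart in them. In 31 of these the # arm was later in both pools, in 8 earlier in both, and the median gap was 5.08 cycles.

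With the pairings named 5p and 3p included, the widest gap between arms was that of miR-30b, at 4.50 in F2 and 3.43 in F3 against 17.59 and 16.10 for miR-30b#. miR-125b-5p led miR-125b-3p by 13.54 and 10.33 cycles, miR-191 led miR-191# by 10.14 and 13.62, and miR-29a led hsa-miR-29a# by 13.88 and 9.79. let-7c led let-7c-1# by 11.69 and 11.07. The closest arms, counted the same way, were those of miR-542 (0.39 and -0.60 cycles), miR-339, miR-872, miR-322 and miR-532, each within 1.60 cycles in both pools.

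Few pairings had both arms determined in F1. Others had a single arm there, more often the unmarked one, and are left out of the counts below. The unmarked arm alone was determined for miR-191 (2.68) and miR-150 (6.24), for example, and the # arm alone for miR-99b (9.05) and miR-93 (15.09). Of the 6 pairings with both arms determined in F1, the # arm crossed earlier in 4, and the median gap was -3.52 cycles, whereas these 6 pairings had a median gap of 6.59 in F2 and F3. For miR-34c, the # arm led by 14.36 cycles in F1, 0.35 in F2 and 2.19 in F3. For miR-138 the # arm led by 4.04 cycles in F1 and lagged by 6.47 and 6.38 in F2 and F3. The cards also differed in the lag of F1.

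**Figure D5:**
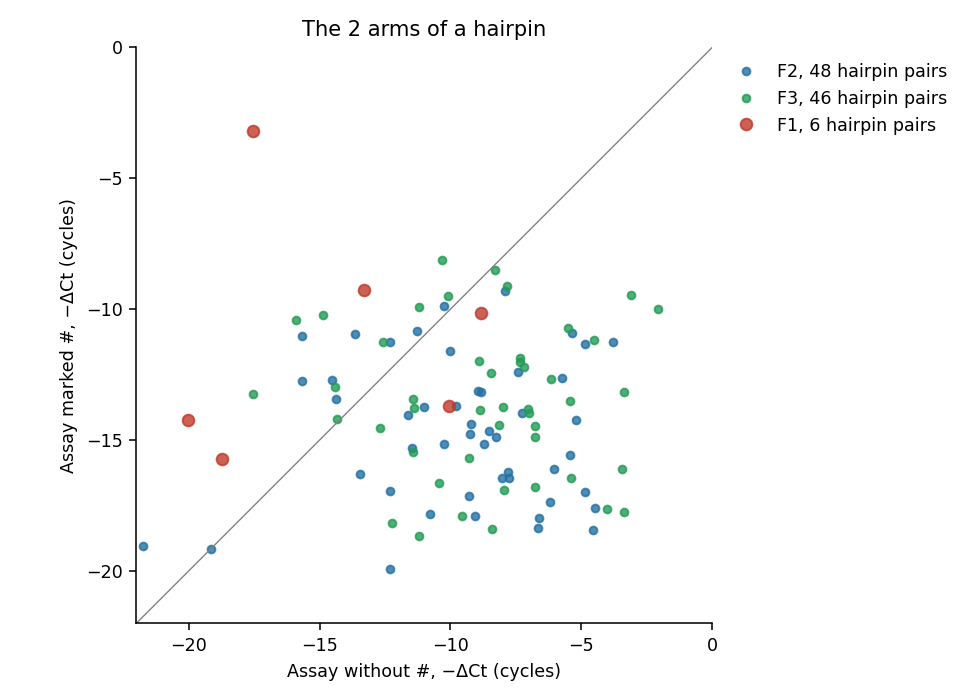
Relative abundance (−ΔCt in cycles) of the # assay against the unmarked assay of the same hairpin in each pool where both were determined, with the line of equality. Most of the 48 pairings in F2 and 46 in F3 lie below the line, and 4 of the 6 in F1 lie above it.

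On both cards 13 miRNA names occurred, with different assay numbers, and 6 of them had both assays determined in F2 and F3. The 2 assays of miR-487b differed by -0.36 and -0.48 cycles (card B minus card A) and those of miR-292-3p by 1.38 and 1.87. The card B assay was later by 5.04 and 5.82 for miR-10b and earlier by 4.71 and 4.25 for miR-467a. miR-322 and miR-467b lay between, at 4.73 and 2.19 and at -3.46 and -1.60. For miR-449b the card B assay had 16.15 in F1, 14.16 in F2 and 13.47 in F3 and that of card A was undetermined. For miR-494 it was the card A assay that was determined, at 11.06 and 11.25 in F2 and F3. miR-217, miR-325, miR-330 and miR-370 were undetermined on both cards, and miR-543 was determined on card A in F3 only.

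Few values sat at the limit. A Ct of 35 or later was found for 13, 36 and 25 assays of F1, F2 and F3. The 3 values nearest 40 were those of miR-367 in F2 (38.96), miR-465a-3p in F3 and miR-669H-5P in F3 (39.99).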

How the data were processed

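Total RNA of each pool was extracted, and 30 ng was reverse transcribed, pre-amplified and run for 40 cycles on TaqMan cards A and B. The authors took a Ct score for each well from the RQ Manager software and deposited it raw, without normalization and without merging pools. A deposited table of signed fold change scores between vitrified and fresh blastocysts holds the authors' own comparison and was not used. Pools were grouped by the labels, and the vitrified pools were not analysed here.

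A Ct of 40 or later, or an undetermined well, counted as not determined, and the mean U6 Ct of the same card and pool was subtracted (Python 3.11.15, pandas 2.3.3, matplotlib 3.10.9). With 1 group of 3 pools there is no contrast, so no test was run, and no depth is known. The calculation was tested on simulated cards. Each family list took every assay of its miRNA numbers not marked #. Named were the first 15 assays by mean ΔCt over all pools and over F2 and F3, the first 10 of F1, the leading 2 assays of each list, the undetermined assays of each list (for the Dlk1-Dio3, Sfmbt2 and X-linked testis lists only their number), the 5 smallest and 5 largest SDs and arm gaps, the 3 Ct values nearest 40, assays on both cards and marker miRNAs, with further members of the lists for context. Members and lists were chosen with earlier results of these data known. Assay names were matched to RefSeq mature miRNAs by name and known guide arm. Alternatives were limits of 35 and 38 cycles, other references, undetermined wells set to 40, and each pool left out.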

Additional observations from a re-analysis of the deposited data

How the results depend on the processing

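The number of assays determined in every pool used depended on F1: without replicate 1 it was 370, and without replicate 2 or replicate 3 it was 136. The number determined in at least 1 pool ranged from 409 to 444 when a pool was left out. Cycle limits of 35 and 38 left 121 and 131 assays in all pools, 416 and 444 in at least 1, and 217 and 234 in F2 and F3 but not F1. The last count has no value with a pool left out. The first 15 assays kept 10 to 15 of their members under every alternative, the 10 being without replicate 1. The cycle limits could not change this list, whose latest Ct was 29.42. Raw Ct and the miRNA mean treat every assay of a pool alike, so they could move the order little.

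Over all determined wells the miR-290 to miR-295 cluster had a median ΔCt of 11.7, beside 13.44 for all assays. It ranged from 10.66 (without replicate 3) to 11.91 (without replicate 2). Against other references its scale moved, to 8.04 with the snoRNA wells, 2.81 with the mean of the miRNAs determined in all pools and 28.47 as raw Ct, while all assays had 9.70, 4.32 and 30.28. With undetermined wells set to 40 it was 15.44, beside 15.81. No paired analysis was possible because 1 group was described and no contrast was made.

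Single wells, 3 pools and 1 pool with few determined assays limit what the order can show.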
